A study of Mus musculus with 12 samples.

Results

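The 6 STAT transcription factor genes Stat2, Stat3, Stat4, Stat5a, Stat5b and Stat6 were followed in mouse spleen. They were chosen by symbol among the 19938 genes that the arrays measure with a probe set assigned to a single gene, and all 6 were found, each with 1 probe set. The series holds 12 Affymetrix arrays of spleen RNA from C57BL/6 mice, labelled as 3 groups of 4 biological replicates. The first group is septic and Toll-like receptor (TLR)-deficient, and its titles name Trif and MyD88, the adaptors through which TLRs pass on the detection of microbes. The second is septic and wildtype, and the third is wildtype and untreated. Sepsis was caused by colon ascendens stent peritonitis, an operation that places a stent in the ascending colon so that gut contents leak into the abdomen. The labels give neither the alleles, the age of the mice nor the time from operation to sampling, and no untreated TLR-deficient group is among the samples, so a difference of genotype present without sepsis cannot be told apart from one in the response. The titles number the arrays from M5 to M16: M5 to M8 are septic TLR-deficient replicates 1 to 4, M9 to M12 septic wildtype replicates 1 to 4 and M13 to M16 untreated replicates 1 to 4.

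STAT proteins carry cytokine signals from the cell surface to the nucleus. A cytokine brings its receptor chains together, the Janus kinases bound to them phosphorylate the receptor, and STATs dock there, are phosphorylated on a tyrosine, pair up and bind DNA in the nucleus. Stat2 works with Irf9 downstream of type I interferon, Stat3 downstream of interleukin-6 and its relatives and of interleukin-10, and Stat4 downstream of interleukin-12. Stat5a and Stat5b, close relatives from a gene duplication, serve interleukin-2, interleukin-7, erythropoietin and growth hormone, and Stat6 serves interleukin-4 and interleukin-13. Activity depends on phosphorylation, which RNA does not show, but several STAT genes are themselves induced by cytokines.

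The labels described the likeness of the arrays poorly, and this touches every value below. For 5 of the 12 arrays the nearest array, by correlation across genes, carried the same label. The array nearest to M8 was M9, to M12 it was M13, and to M16 it was M5, so replicate 4 of each group lay nearest to an array of another group. M10, septic wildtype replicate 2, stood apart from all, with Pearson's r of 0.765 to 0.809 to the others against 0.956 to 0.991 among the remaining 11 arrays, and its log2 values had a standard deviation of 1.52 against 2.11 to 2.24. Neither adaptor gene set the label TLR-deficient fully apart. Myd88 lay between 8.62 and 9.64 on its 4 arrays, against 6.48 to 9.20 on septic wildtype and 8.87 to 9.75 on untreated arrays. Ticam1, which encodes Trif, lay between 5.80 and 5.93 on the TLR-deficient arrays, against 5.64 to 6.22 and 5.76 to 6.57. All TLR-deficient arrays were lower in Ticam1 than every wildtype array except M10 (5.64) and M16 (5.76). The alleles are not given, nor where the probes lie relative to any altered part of these genes, so these values check nothing about the genotype. Values are therefore given by label, with and without M10, and also for M5, M6, M7 and M16, for M8 to M11 and for M12 to M15. These sets were proposed with earlier results of these data known, they are not groups of the study, and no condition is claimed for them.

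The genomic starts of the genes give the sequence context. Upstream sequences are from RefSeq on build GRCm38.p6, which pairs all 6 genes with 9 start sites in all, and 250 bases before each start were searched on both strands for GAAA, any 2 bases and GAAA again (the GAAA pair), the kind of element that Stat2 and Irf9 bind, and for TTC followed by GAA after any 3 or any 4 bases, the elements of STAT pairs, of which Stat6 prefers the wider. The GAAA pair was found before 2 of the 9 starts, in Stat2 and Stat4, and in 2.98% of all 32851 windows of this length. The wider TTC and GAA element was found once, in Stat2 (5.85% of all windows), and the narrower in none of the 9 (7.02% of all windows). The Stat2 window, at chr10:128270248-128270497 on the plus strand, is shown because Stat2 varied most among the 6 genes. Its capitals mark the GAAA pair, read on the other strand, at positions -222 to -213 from the start, and the wider TTC and GAA element at -210 to -201, with no overlap between them. The Stat4 window is that of the second start, at chr1:52007990-52008239 on the plus strand, with the GAAA pair in capitals at -97 to -88. The Stat3 window, at chr11:100939541-100939790 on the minus strand, held none of the 3 elements and is given beside Stat2 because these genes shared the same lowest arrays.
Stat2: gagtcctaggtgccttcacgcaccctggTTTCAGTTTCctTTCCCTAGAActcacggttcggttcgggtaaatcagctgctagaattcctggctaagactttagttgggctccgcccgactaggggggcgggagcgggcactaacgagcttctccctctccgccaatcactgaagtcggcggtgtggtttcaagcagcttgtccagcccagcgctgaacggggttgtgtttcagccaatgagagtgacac
Stat4: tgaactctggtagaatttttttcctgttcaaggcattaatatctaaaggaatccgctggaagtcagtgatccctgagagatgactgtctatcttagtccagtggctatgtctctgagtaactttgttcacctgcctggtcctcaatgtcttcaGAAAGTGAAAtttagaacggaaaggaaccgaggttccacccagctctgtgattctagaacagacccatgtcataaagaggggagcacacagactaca
Stat3: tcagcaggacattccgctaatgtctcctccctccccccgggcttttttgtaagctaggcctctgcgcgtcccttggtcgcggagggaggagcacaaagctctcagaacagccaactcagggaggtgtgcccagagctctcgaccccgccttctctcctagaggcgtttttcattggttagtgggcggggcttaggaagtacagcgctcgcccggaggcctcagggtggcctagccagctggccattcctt
A match is a string of letters and not a shown binding site, and a window without it says nothing about the factor.

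Stat2, the interferon STAT, had the lowest mean on the arrays labelled septic wildtype and the highest on those labelled untreated. Its log2 values were 9.84, 9.998, 8.83 and 8.53 on septic TLR-deficient replicates 1 to 4. On septic wildtype replicates 1 to 4 they were 8.64, 5.97, 8.30 and 10.06, and on untreated replicates 1 to 4 they were 9.48, 10.01, 10.51 and 9.78. Septic wildtype replicate 4 thus lay within the range of the untreated arrays and well above the rest of its own label, and the labelled groups overlapped. The means were 9.30 ± 0.73, 8.24 ± 1.69 and 9.94 ± 0.44 (SD, n = 4 each). Septic wildtype minus untreated was -1.70 (SE 0.66, 95% interval -3.12 to -0.28), with adjusted p = 0.439 in limma over all genes, and -0.95 without M10. Septic TLR-deficient minus septic wildtype was 1.06 (SE 0.66, interval -0.36 to 2.48, adjusted p = 0.590), 0.30 without M10 and 1.67 without M12. By title number the picture was sharper: M8 to M11 lay between 5.97 and 8.64, below all other 8 arrays, which ran from 8.83 to 10.51. M12 to M15 were at 9.48 or more, while M7, at 8.83, was the lowest of the rest.

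Stat3, the STAT of interleukin-6 and interleukin-10, showed the same lowest arrays with a clearer gap. The values were 10.19, 10.05, 9.47 and 8.99 for septic TLR-deficient replicates 1 to 4. Septic wildtype replicates 1 to 4 had 9.01, 7.56, 8.998 and 9.46, and untreated replicates 1 to 4 had 9.52, 9.62, 10.08 and 10.69. All 4 septic wildtype arrays lay below all 4 untreated arrays, although 9.46 and 9.52 nearly met. The means were 9.67 ± 0.55, 8.76 ± 0.83 and 9.98 ± 0.53 (SD, n = 4 each). Septic wildtype minus untreated was -1.22 (SE 0.41, interval -2.10 to -0.34), a difference that missed the threshold once all genes were counted (unadjusted p = 0.010, adjusted p = 0.439 in limma) and was -0.82 without M10. Septic TLR-deficient minus septic wildtype was 0.92 (SE 0.41, interval 0.03 to 1.80, unadjusted p = 0.043, adjusted p = 0.590 in limma), and 0.51 without M10. M8 to M11 lay at 7.56 to 9.01 and the other 8 arrays at 9.46 or more, a gap of 0.45. Among those 8 the order mixed M5 to M7 and M16 (9.47 to 10.69) with M12 to M15 (9.46 to 10.08), and the highest value was on M16, which is labelled untreated.

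**Figure D1:**
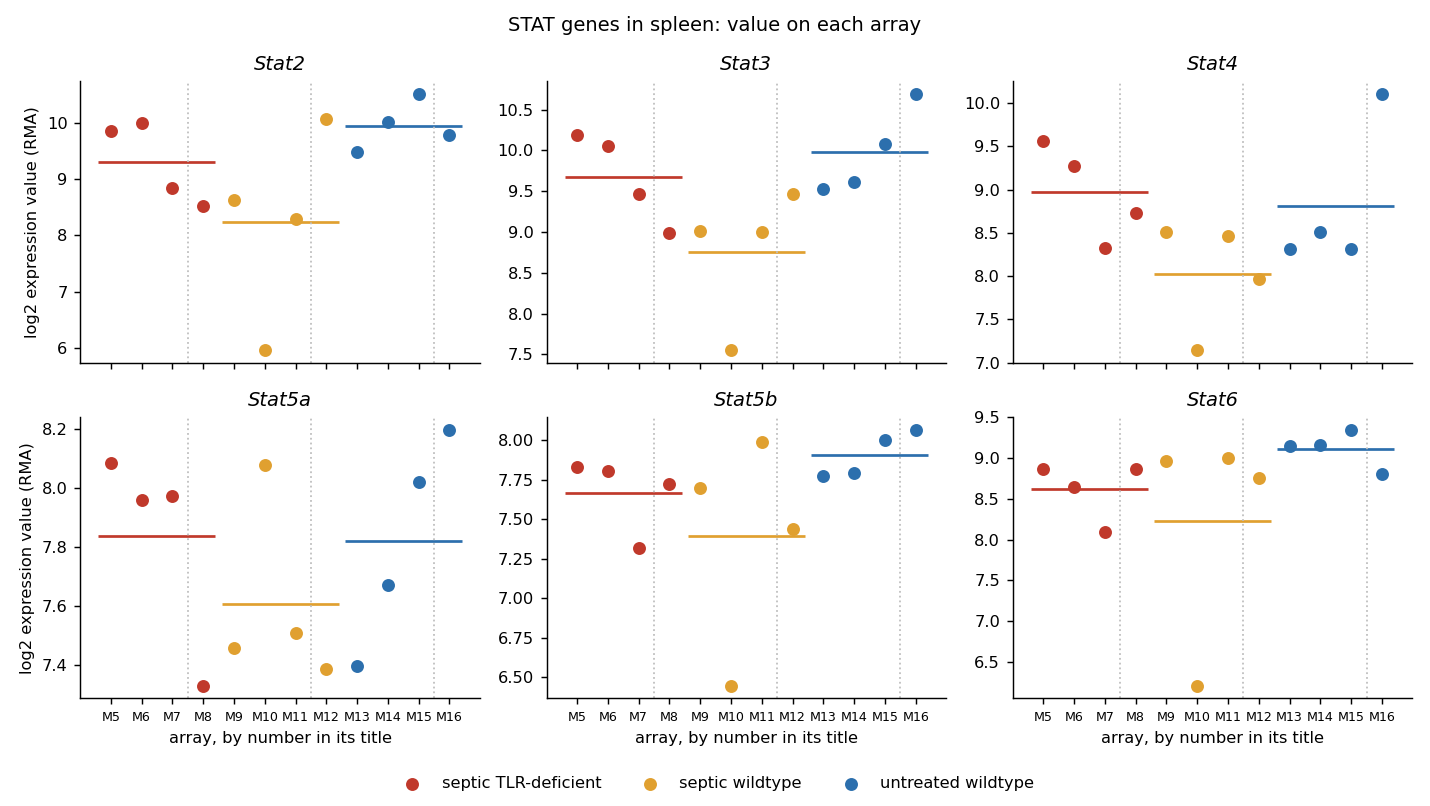
Log2 expression value of each of the 6 STAT genes (vertical axes, each with its own range) on the 12 arrays in the order of the numbers in their titles (horizontal axis). Points are arrays coloured by label, horizontal bars are the means of the 4 arrays of a label, and dotted lines separate M5 to M7, M8 to M11, M12 to M15 and M16. Stat2 and Stat3 are lowest on M8 to M11, Stat4 is highest on M16 at 10.11, and M10 is the lowest array for every gene except Stat5a.

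Only Stat2 and Stat3 had M8 to M11 below the other 8 arrays, 2 of the 6 genes against 2.12% of all genes (423 of 19938). Without M10 the same arrangement of M8, M9 and M11 again held for Stat2 and Stat3 and for 2.63% of all genes. It held for the same 2 genes after a further quantile normalization and after centring each array on its median. Neither gene had M5, M6, M7 and M16 above all others, an arrangement found in none of the 6 genes and in 1.72% of all genes. Because the sets were proposed with earlier results of these data known, these counts are a description and no independent evidence.

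Stat4, which turns on interferon-gamma and the T helper 1 program in T cells and natural killer cells, did not have its lowest values on M8 to M11 alone. Its values were 9.56, 9.28, 8.33 and 8.74 for septic TLR-deficient replicates 1 to 4. It had 8.51, 7.15, 8.46 and 7.97 on septic wildtype replicates 1 to 4, and at 8.32, 8.51, 8.31 and 10.11 on untreated replicates 1 to 4. Only M5, M6 and M16 exceeded 9, and M16 was 1.60 above the next untreated array. The means were 8.98 ± 0.55, 8.02 ± 0.63 and 8.81 ± 0.87 (SD, n = 4 each). Septic TLR-deficient minus septic wildtype was 0.95 (SE 0.43, interval 0.02 to 1.89, unadjusted p = 0.046, adjusted p = 0.590 in limma), and 0.66 without M10. Septic wildtype minus untreated was -0.79 (SE 0.43, adjusted p = 0.439 in limma), and -0.50 without M10 and -0.36 without M16. T cell markers did not share this order: the mean log2 value over the 12 measured of 14 T cell markers was 7.34, 7.08 and 7.08 on M5, M6 and M16, near the bottom of its range of 6.80 to 8.23. The mean over 8 natural killer cell markers was 6.22, 5.94 and 6.16 there, in a range of 5.62 to 7.23. In bulk spleen RNA fewer cells of a type and less RNA per cell cannot be told apart, and the part of cell composition in the STAT values was not tested.

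Stat5a and Stat5b, neighbours on chromosome 11 together with Stat3 (no annotated gene lies between Stat5b and Stat5a or between Stat5a and Stat3 in RefSeq), were both highest on M16, at 8.20 and 8.07, but Stat5a was lowest on M8 and Stat5b on M10. Probe sets of close paralogs can pick up the transcript of the other gene, which was not tested. The stretch of their upstream windows with the longest shared run is shown to compare the duplicates. The 60 bases below lie before the second start of each gene, at chr11:100860424-100860483 on the plus strand for Stat5a and at chr11:100822571-100822630 on the minus strand for Stat5b, and capitals mark the longest shared run, of 16 bases.
Stat5a: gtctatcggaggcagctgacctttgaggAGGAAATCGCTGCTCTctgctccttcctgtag
Stat5b: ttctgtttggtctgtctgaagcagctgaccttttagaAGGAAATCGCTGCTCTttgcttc
Stat5a moved within a narrow range, with 8.09, 7.96, 7.97 and 7.33 for septic TLR-deficient replicates 1 to 4. It was at 7.46, 8.08, 7.51 and 7.39 on septic wildtype replicates 1 to 4 and at 7.40, 7.67, 8.02 and 8.20 on untreated replicates 1 to 4. M5, M6, M7 and M16 lay between 7.96 and 8.20, and outside them only M10 and M15 reached 8. Stat5a was the sole gene of the 6 that was high on M10. Its means of 7.84 ± 0.34, 7.61 ± 0.32 and 7.82 ± 0.36 (SD, n = 4 each) differed by at most 0.23 (SE 0.24), with adjusted p = 0.568 or more in limma in all 3 comparisons. The interval of septic TLR-deficient minus untreated ran from -0.51 to 0.54. Stat5b had 7.83, 7.81, 7.32 and 7.73 for septic TLR-deficient replicates 1 to 4, at 7.70, 6.45, 7.99 and 7.44 on septic wildtype replicates 1 to 4, and at 7.77, 7.80, 8.003 and 8.07 on untreated replicates 1 to 4. Apart from M10 it varied over 0.75, close to the median range of all genes over the same 11 arrays, which was also 0.75. Septic wildtype minus untreated was -0.52 (SE 0.28, interval -1.12 to 0.09, adjusted p = 0.439 in limma) for Stat5b and -0.20 without M10.

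Stat6, the STAT of interleukin-4 and of B cell class switching to IgE, was set apart by M10 alone. Its values were 8.87, 8.64, 8.09 and 8.87 on septic TLR-deficient replicates 1 to 4. Septic wildtype replicates 1 to 4 had 8.96, 6.21, 9.003 and 8.75, and untreated replicates 1 to 4 had 9.14, 9.16, 9.35 and 8.81. The untreated array M16 lay below the other untreated arrays and among the septic ones, and M13 to M15 were the highest of all. The means were 8.62 ± 0.37, 8.23 ± 1.35 and 9.12 ± 0.22 (SD, n = 4 each). Septic wildtype minus untreated was -0.88 (SE 0.50, adjusted p = 0.439 in limma) and -0.21 without M10. Septic TLR-deficient minus septic wildtype was 0.39 (SE 0.50, adjusted p = 0.691 in limma), and it turned to -0.29 without M10. The B cell marker mean (9 of 10 markers measured) was 8.16 to 8.45 on M5, M6, M7 and M16 and 8.16 on M10, against 9.40 to 10.15 on the other 7 arrays, so Stat6 and B cell markers were both low on M7 and M10, while M8, M9 and M11 had the highest B cell marker means and M13 to M15 the highest Stat6.

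The size of these movements can be set against the array as a whole. Over the 11 arrays other than M10 the range of Stat2 was 2.21, that of Stat4 2.14, that of Stat3 1.70 and that of Stat6 1.26, larger than in 97.2%, 96.9%, 93.3% and 83.8% of all genes. Stat5a (0.87) and Stat5b (0.75) had ranges larger than in 61.7% and 50.5% of genes. As a description over the same 11 arrays, which share the sets named above, Pearson's r was 0.85 between Stat3 and Stat5a, 0.74 between Stat2 and Stat3 and 0.70 between Stat3 and Stat4, and 0.31 between Stat5a and Stat5b. With M10 included these became 0.30, 0.90, 0.82 and -0.13.

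As labelled, septic wildtype against untreated asks what peritonitis does to these genes in mice with intact TLRs. All 6 STAT genes had lower means on the septic wildtype arrays, with a median difference of -0.84 and of -0.43 without M10. Over all genes the median was 0.07, and 0.024 without M10. With M10 included, 44.9% of all genes had a lower mean. No STAT gene passed an adjusted p under 0.05 in limma, nor did any of the 19938 genes (0%). At an unadjusted p under 0.05, 2 of the 6 were lower (Stat2 and Stat3), where 5.92% of all genes were lower at that level. Stat3 alone had groups that did not overlap, as did 2.74% of all genes in that direction. When only replicates 1 to 3 of each group were used, the difference was -2.36 for Stat2 and -1.22 for Stat3, and -1.53 and -0.73 when M10 was left out as well. This subset leaves out M8, M12 and M16, each nearest to an array of another label, so it is no independent check of the labels.

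Septic TLR-deficient against septic wildtype, which as labelled compares the genotypes within sepsis, ran the other way. All 6 STAT genes had higher means on the TLR-deficient arrays, with a median difference of 0.65 and of 0.35 without M10, where Stat5b (-0.04) and Stat6 changed sign. Over all genes the median was -0.06, and -0.008 without M10. With M10 included, 43.9% of all genes had a higher mean. No STAT gene and none of all genes (0%) passed in limma, and 2 of the 6, Stat3 and Stat4, had an unadjusted p under 0.05, where 4.42% of all genes were higher at that level. The labelled groups overlapped in all 6, while in 2.05% of all genes every TLR-deficient array lay above every septic wildtype array. With replicates 1 to 3 only, the difference was 1.92 for Stat2, 1.38 for Stat3 and 1.02 for Stat4, and 1.09, 0.90 and 0.57 without M10. Here too the subset leaves out the arrays nearest to another label, so it is no independent check. This comparison shares its septic wildtype arrays, M10 among them, with the previous comparison, so their opposite signs are not separate observations.

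Septic TLR-deficient against untreated changes genotype and sepsis together. Here 4 of the 6 STAT genes had lower means, as did 48.1% of all genes, with Stat2 at -0.64 (SE 0.66), Stat6 at -0.50 (SE 0.50), Stat3 at -0.31 (SE 0.41) and Stat5b at -0.24 (SE 0.28), while Stat4 at 0.16 (SE 0.43) and Stat5a at 0.02 (SE 0.24) had slightly higher means. Each difference was smaller than or close to its standard error. None of the 6 and none of all genes (0%) passed in limma, and none of the 6 had an unadjusted p under 0.05, a level reached by 1.88% of all genes. The labelled groups overlapped in all 6. In the direction of Stat4 and Stat5a, every TLR-deficient array lay above every untreated array in 2.40% of all genes. The share for the direction of the other members is not given here. The interval for Stat2, from -2.06 to 0.78, still holds changes larger than 2 on the log2 scale.

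**Figure D2:**
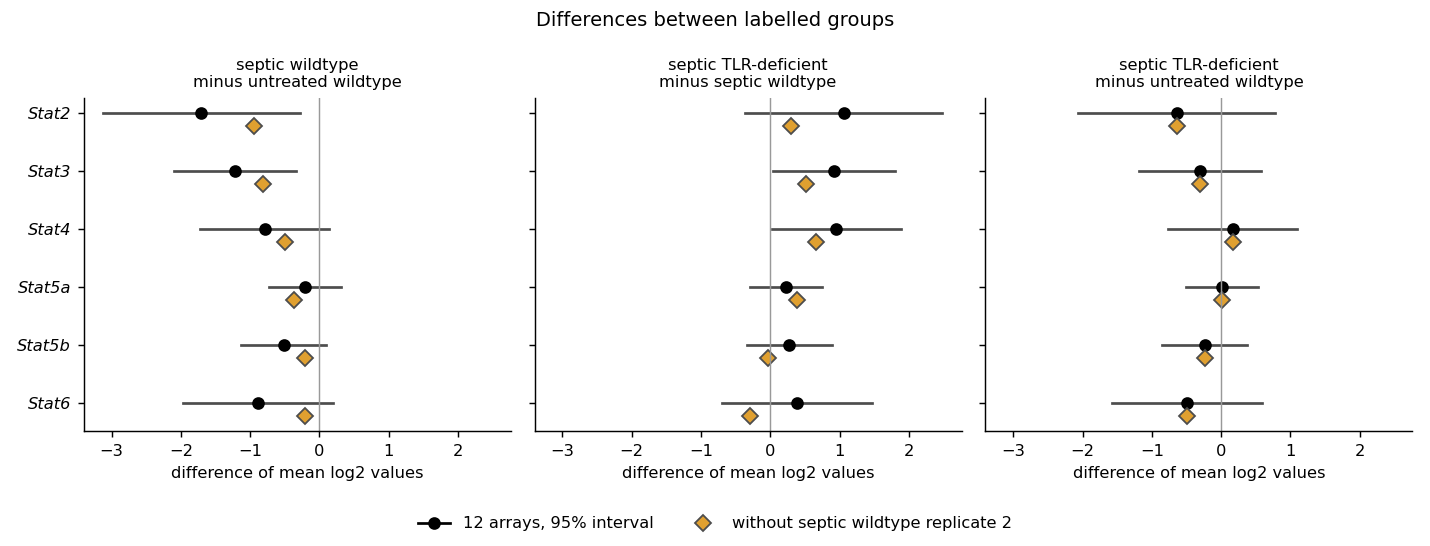
Difference of mean log2 values (horizontal axis) for each STAT gene (vertical axis) in the 3 comparisons of labelled groups. Black points and lines are the estimate and 95% interval of the limma model over 12 arrays, and diamonds are the estimate without septic wildtype replicate 2. In septic wildtype minus untreated the estimate for Stat2 goes from -1.70 to -0.95 without that array.

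Order by label can be read from these values. For Stat2, Stat3, Stat5b and Stat6 the means ran septic wildtype, septic TLR-deficient, untreated from low to high, and for Stat4 and Stat5a septic wildtype, untreated, septic TLR-deficient. The 95% interval of the difference between neighbours in this order included 0 for every gene except the lower neighbours of Stat3, where it ran from 0.03 to 1.80. The outer pair, septic wildtype and untreated, had intervals that excluded 0 for Stat2 and Stat3, and so did that between septic wildtype and septic TLR-deficient for Stat4 (0.02 to 1.89). These intervals are not adjusted for the number of genes.

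Upstream of the STATs, the 3 Janus kinases measured were compared by the same model. Jak2, which serves the receptors for interferon-gamma, erythropoietin and interleukin-12, was at 9.520 to 10.13 on M5, M6, M7 and M16, just above all other arrays (8.82 to 9.518, and 4.84 on M10). Septic wildtype minus untreated was -1.55 for Jak2 (SE 0.75) and -0.50 without M10. Jak1, shared by interferon and interleukin-2 and interleukin-6 family receptors, had -0.58 (SE 0.35) and -0.11 without M10, and Tyk2, which serves interferon and interleukin-12 receptors, had -0.12 (SE 0.27), which turned to 0.03 without M10. Between septic TLR-deficient and septic wildtype Jak2 differed by 1.46 (SE 0.75; 0.41 without M10), Jak1 by 0.41 (SE 0.35; -0.06 without M10) and Tyk2 by -0.31 (SE 0.27; -0.46 without M10). Against untreated, the TLR-deficient arrays differed by -0.17 in Jak1, -0.08 in Jak2 and -0.43 in Tyk2. None passed in limma.

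Of 36 receptor genes that signal through STATs, 32 were measured. On septic wildtype arrays 25 had lower means than on untreated arrays, with a median difference of -0.47 (-0.16 without M10), and 0 passed in limma, with 9 lower at an unadjusted p under 0.05. Over all genes 44.9% had a lower mean and 5.92% were lower at that level. The largest differences were in Lepr, the leptin receptor, at -1.59 (SE 0.42), Osmr, the oncostatin M receptor, at -1.58 (SE 0.40), and Il2ra, the high-affinity chain of the interleukin-2 receptor, at -1.44 (SE 0.54), the first pair of which signal mainly through Stat3. Between septic TLR-deficient and septic wildtype 24 of the 32 had higher means (43.9% of all genes did), with a median of 0.24 (0.037 without M10 and 0.41 without M12), led by Lepr at 1.13 (SE 0.42), Il15ra at 1.02 (SE 0.49) and Osmr at 0.91 (SE 0.40). On TLR-deficient against untreated arrays 26 had lower means (48.1% of all genes did), with a median of -0.27 (-0.12 without M7). Epor, the erythropoietin receptor that activates Stat5, ran the other way at 0.95 (SE 0.42), and the mean over 7 erythroid markers was 8.76 to 9.23 on the TLR-deficient and 7.13 to 8.35 on the untreated arrays, whose part in this difference was not tested.

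Inhibitors of the pathway, only some of which STATs themselves induce, had lower means on septic wildtype than on untreated arrays in 17 of 18 genes, with a median difference of -0.69 (-0.30 without M10), 0 passing in limma and 7 lower at an unadjusted p under 0.05, where all genes gave 44.9% and 5.92%. Socs3, a Stat3 target that blocks interleukin-6 receptor signalling, had 9.22, 9.63, 8.95 and 6.03 for septic TLR-deficient replicates 1 to 4, at 6.18, 5.35, 6.43 and 7.59 on septic wildtype replicates 1 to 4, and at 7.76, 7.86, 8.16 and 9.61 on untreated replicates 1 to 4. Its values formed 3 separate levels by title number, 8.95 to 9.63 on M5, M6, M7 and M16, 7.59 to 8.16 on M12 to M15 and 5.35 to 6.43 on M8 to M11, a split that Stat3 itself showed only between the last set and the rest. By label Socs3 differed by -1.96 (SE 0.72; -1.62 without M10) in septic wildtype minus untreated and by 2.07 (SE 0.72) in septic TLR-deficient minus septic wildtype. Usp18, which shuts off the type I interferon receptor, had -1.92 (SE 0.72) and 1.07 (SE 0.72), and Socs2, a Stat5 target that dampens growth hormone signalling, -1.33 (SE 0.41) and 1.11 (SE 0.41) in the same comparisons. Between septic TLR-deficient and septic wildtype 16 of the 18 had higher means (median 0.51, and 0.20 without M10; 43.9% of all genes had a higher mean). Between septic TLR-deficient and untreated 17 had lower means (median -0.15, and -0.24 without M6; 48.1% of all genes had a lower mean), with Usp18 at -0.85 (SE 0.72), the tyrosine phosphatase gene Ptpn6 at -0.53 (SE 0.45) and the Stat5 target Cish at -0.47 (SE 0.32).

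Genes known as targets of each STAT were described by counts. The interferon genes among them were already known to be low on septic wildtype arrays when the lists were drawn up, so the counts are no independent evidence. All 18 measured of 20 Stat2 and Irf9 targets had lower means on septic wildtype than on untreated arrays, with a median difference of -1.91 (-1.36 without M10). Ifit1 and Ifit2, which hold back the translation of viral RNA, had -3.001 (SE 0.95) and -2.57 (SE 0.82), and the antiviral GTPase Mx2 had -2.40 (SE 0.80). Of 20 Stat3 targets 19 had lower means, with a median of -1.39 (-1.06 without M10), led by Serpina3n, an acute-phase protease inhibitor, at -2.97 (SE 0.84). The medians were smaller for Stat5 targets (-0.52, 14 of 14 lower), Stat6 targets (-0.40, 13 of 16 lower; -0.11 without M10) and Stat4 targets (-0.38, 11 of 11 lower; -0.61 without M13). At an unadjusted p under 0.05, 15 of 18 Stat2 and Irf9 targets and 13 of 20 Stat3 targets were lower, 7 of 14 Stat5, 5 of 16 Stat6 and 3 of 11 Stat4 targets, and 0 genes of any list passed in limma. Of all genes 5.92% were lower at that level, and 44.9% had a lower mean. Map3k8, a kinase of inflammatory signalling, led the Stat4 list at -1.26 (SE 0.49; -0.72 without M10), with Furin, the protease that processes many secreted precursors, at -1.03 (SE 0.36). Il2ra and Socs2 led the Stat5 list, and Ccl22, a chemokine of dendritic cells and macrophages, led the Stat6 list at -1.22 (SE 0.40). Some genes stand in 2 lists, among them Socs2, Il2ra, Osmr and Socs3.

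In septic TLR-deficient minus septic wildtype all 18 Stat2 and Irf9 targets (median 1.19, 0.66 without M10 and 1.88 without M12) and 19 of 20 Stat3 targets (median 1.15, and 0.85 without M10) had higher means, against 43.9% of all genes. Saa3, an acute-phase apolipoprotein, had the largest difference, at 3.32 (SE 1.26), and Timp1, an inhibitor of matrix proteases, had 2.40 (SE 0.77). The median was 0.23 for Stat5 targets (13 of 14 higher), and 0.14 without M10, 0.37 without M7 and 0.43 without M12. It was 0.15 for Stat4 targets (8 of 11 higher; 0.30 without M7) and 0.13 for Stat6 targets (9 of 16 higher; 0.21 without M12). Fcer2a, the low-affinity IgE receptor that interleukin-4 induces on B cells through Stat6, had a lower mean, at -2.41 (SE 0.96). Fcer2a is also a B cell marker, and 7 of the 9 B cell markers measured had lower means in this comparison (median -0.47, and -0.69 without M10), whose part in the value was not tested. Pdcd1lg2, an inhibitory ligand of T cells, had a higher mean, at 0.85 (SE 0.38). In septic TLR-deficient minus untreated all 18 Stat2 and Irf9 targets had lower means (median -0.78, and -0.33 without M8), against 48.1% of all genes, while Stat3 targets were mixed (12 of 20 lower, median -0.17, but 0.15 without M8), and Stat3 itself differed by -0.31. There 10 of 11 Stat4, 11 of 14 Stat5 and 12 of 16 Stat6 targets had lower means, led by the T helper 1 factor Tbx21 at -0.68 (SE 0.30), the cyclin Ccnd2 at -0.81 (SE 0.41) and Fcer2a at -1.29 (SE 0.96), beside lower means in 8 of the 9 B cell markers (median -0.50).

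Array by array, the targets of Stat2 and of Stat3 shared the low values on M8 to M11 but parted on the other arrays. M8 to M11 lay below the other 8 arrays in 14 of 18 Stat2 and Irf9 targets and in 16 of 20 Stat3 targets, against 2.12% of all genes, and in 14 and 17 of them without M10 (2.63% of all genes). The same held for 3 of 11 Stat4, 3 of 14 Stat5 and 4 of 16 Stat6 targets. Both the sets of arrays and the lists were chosen with earlier results of these data known. These counts beside the share of all genes are therefore a description and no independent evidence. M5, M6, M7 and M16 lay above M12 to M15 in 7 of 20 Stat3 targets and 3 of 11 Stat4 targets (4.79% of all genes). The count was 0 for the Stat2, Stat5 and Stat6 targets, which in lists this short is close to the share of all genes. The mean over the Stat3 targets was 8.42 to 9.07 on M5, M6, M7 and M16, 7.86 to 8.24 on M12 to M15 and 6.33 to 6.98 on M8 to M11. The mean over the Stat2 and Irf9 targets was 8.33 to 9.61, 8.75 to 9.98 and 6.27 to 7.74 on the same arrays, and like Stat2 it was lower on M7 than on M5, M6 and M16.

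**Figure D3:**
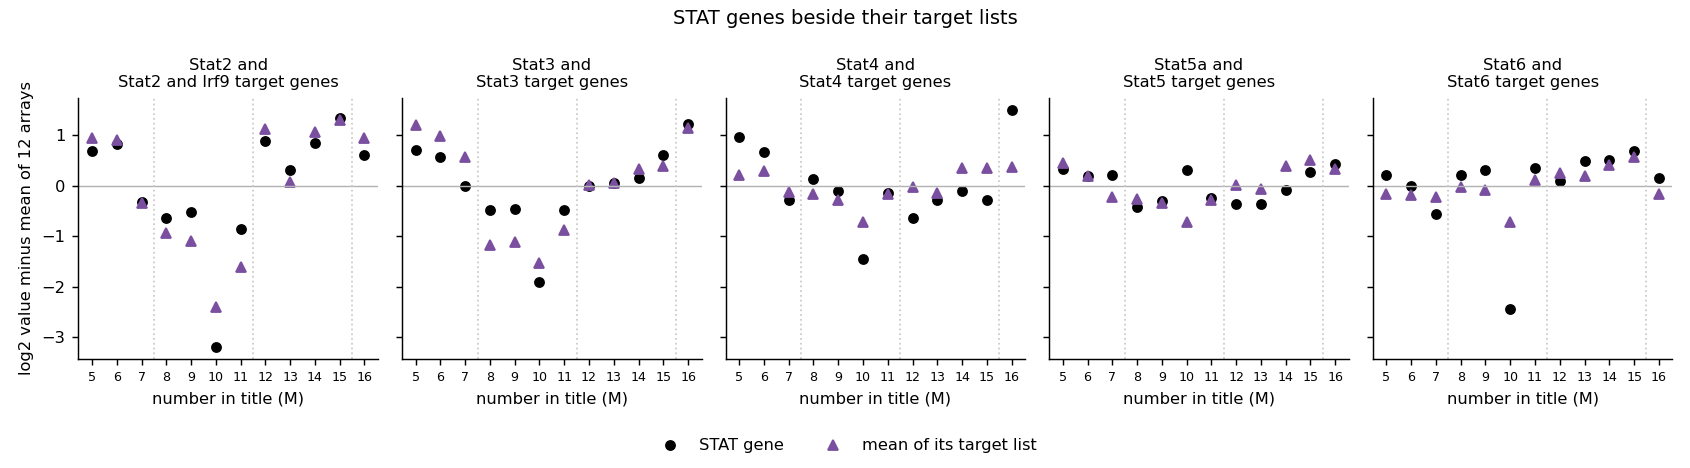
Log2 value of a STAT gene (circles) and mean log2 value of its list of target genes (triangles), each minus its own mean over 12 arrays (vertical axis), against the number in the title of the array (horizontal axis). Dotted lines separate M5 to M7, M8 to M11, M12 to M15 and M16. The Stat2 targets and the Stat3 targets are low on M8 to M11 together with their STAT gene, and Stat6 lies at -2.44 on M10.

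Each STAT gene was last set beside the genes whose values were most like its own, by Pearson's r over the 11 arrays other than M10, as a description without a test. The closest to Stat2 were Tor3a (r = 0.98), Tdrd7 (0.98) and Helz2 (0.97), all known as interferon-induced genes, and with M10 included r was 0.97, 0.96 and 0.97. The closest to Stat3 were Hook2 (0.98), a microtubule linker that ranged only from 5.48 to 6.28, the phosphatase gene Alpl (0.97) and Tnfaip6 (0.97), a secreted protein induced by inflammation, with 0.66, 0.94 and 0.74 over all 12 arrays. For Stat4 they were Slamf1, a receptor of activated lymphocytes, Dock9 and Skil (0.97, 0.96 and 0.96), and for Stat5a Htr7, Gadd45g and the neutrophil chemokine gene Cxcl5 (0.96, 0.96 and 0.95, but 0.80, 0.56 and 0.88 over 12 arrays). Those closest to Stat5b, Flt3, Tbc1d9 and Gja1, reached 0.93, 0.93 and 0.92, and those closest to Stat6 were Rab21, Gnaq and Gid4, at 0.98, 0.97 and 0.97. The GAAA pair occurred within 250 bases upstream of a start in 6 of the 13 Stat2 and Irf9 targets that have a window (Ifit1, Ifit3, Oas1a, Rsad2, Bst2 and Trim30a), in 2 of the 6 STAT genes and in 3.40% of the 15614 measured genes with a window.

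The labelled tissue was checked by marker lists of spleen cell types. The gene with the highest mean of each list was Cd79b at 9.21 to 10.98 for B cells, Cd8a at 7.47 to 9.74 for T cells, Vcam1 at 8.97 to 11.58 for macrophages and Alas2 at 8.45 to 10.82 for erythroid cells. Those of the other lists were Jchain at 8.68 to 10.71 (plasma cells), Gzma at 6.41 to 8.77 (natural killer cells), Flt3 at 6.97 to 7.91 (dendritic cells) and S100a8 at 6.64 to 10.31 (neutrophils). RMA values have no true zero, so no marker can be called absent, and these levels do not show which cells were present. Markers of acinar cells of the pancreas, which borders the spleen, averaged 8.81 on M12, 9.77 on M14 and 6.88 on M16 and 4.72 to 5.94 on the other arrays (6 of 7 measured). In Stat2 M12 and M14 lay between M13 and M15, and in Stat3 M12, M13 and M14 lay within 9.46 to 9.62. M16 was the highest array in Stat3 (10.69), Stat4 (10.11), Stat5a (8.20) and Stat5b (8.07), but not in Stat2 (9.78) or Stat6 (8.81). The adipocyte markers (5 of 6 measured) ran from 4.39 to 5.89, highest on M10. The part of either in the STAT values was not tested.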

How the data were processed

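Total RNA of 12 mouse spleens was labelled with Affymetrix whole-transcript kits, per the labels, and the authors deposited log2 expression values per probe set, made by RMA in Affymetrix Expression Console per the submitters' processing notes (versions not given). RMA includes a step that equalises the distributions of arrays, which can hide global shifts. The deposited values were still not equal in distribution. Array medians ran from 5.22 (M5) to 5.54 (M10), and standard deviations from 1.52 (M10) to 2.24 (M5). The reason was not tested. Nothing else of the upstream processing is given in the sources used here. A sentence in the extraction protocol on an unrelated mutant was not used.

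Of 35557 probe sets, 21789 carried 1 symbol, 1621 several and 12147 none; 21698 of the first were matched to RefSeq symbols by gene identifier. The probe set with the highest mean stood for a gene, which gave 19938 genes. Groups of 4 arrays were compared with limma 3.58.1 (R 4.3.3), two-sided, with Benjamini-Hochberg adjustment over all genes and a threshold of 0.05. The model was linear, with a mean for each group over 12 arrays. It was tried on simulated data with independent noise, which held no array like M10 and no sets of arrays that cross the labels. That trial therefore does not bear on these features of the real arrays. The number of arrays limits precision. The labels call the arrays biological replicates. Lists were described by counts and medians; no set test was run. Named genes were the STAT genes, the Janus kinases, the largest differences of each pathway list, the 3 likest genes of each STAT gene, the highest gene of each marker list, Myd88 and Ticam1. Other genes of a list were named only where a sentence needed them. The members, the sets of title numbers and the lists were chosen with earlier results of these data known. The replicate numbers of the titles were checked for pairing: of 12 pairs of same-numbered arrays 3 had deviations correlated above 0.1, with r from -0.54 to 0.14, so they were not used as pairs. Plots used matplotlib 3.10.9 (Python 3.11.15).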

Additional observations from a re-analysis of the deposited data

Results flagged for a closer look

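Within the 18 sets of 4 arrays formed by 6 STAT genes and 3 labels, 3 single arrays lay far from the other 3 of their label, by Dixon's criterion at its 95% critical value. Chance marks about 1 in 20 such sets. Stat4 was at 10.11 on untreated replicate 4, above the other untreated arrays at 8.31 to 8.51. Stat5a was at 7.33 on septic TLR-deficient replicate 4, below the others of that label at 7.96 to 8.09. Stat6 was at 6.21 on septic wildtype replicate 2, below the others of that label at 8.75 to 9.003. The first pair of arrays are replicate 4 of their groups, which lay nearest to arrays of another label across all genes, and the third is the array that stood apart from all.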

How the results depend on the processing

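Of 432 recomputed differences of the 6 STAT genes (18 differences under 24 other settings each), 413 kept their direction, 19 turned it and 0 passed the threshold, and the lowest adjusted p in limma was 0.066. Many of the 413 could not have turned, so this count overstates how stable the directions are. A stricter threshold, filters on mean level, trended variances, the replicate block and use of the compared groups only leave a difference of means unaltered. So does leaving out an array of the group not compared. The number of STAT genes called stayed 0 in every setting, including the replicate block, which gave 0 calls over all genes too. No label says whether the replicate numbers pair the arrays. Over all genes the count of 0 became 1 with array weights (septic wildtype against untreated). With replicates 1 to 3 of each group it became 9, 141 and 33 in septic wildtype against untreated, septic TLR-deficient against septic wildtype and septic TLR-deficient against untreated, and 19, 1002 and 675 when septic wildtype replicate 2 was also left out, an alternative chosen after seeing the data. Why these counts were higher was not tested. A further quantile normalization turned Stat5a to 0.22 in septic wildtype minus untreated and to -0.11 in septic TLR-deficient minus septic wildtype. Array weights turned Stat5b to -0.034 and Stat6 to -0.27 in the latter. Replicates 1 to 3 turned Stat3 to 0.16 in septic TLR-deficient minus untreated, and also leaving out septic wildtype replicate 2 gave 0.16 there, 0.10 for Stat4 in septic wildtype minus untreated, and -0.19 for Stat5b and -0.45 for Stat6 in septic TLR-deficient minus septic wildtype. Leaving out 1 array at a time, septic TLR-deficient minus septic wildtype ran from -0.038 to 0.48 for Stat5b and from -0.29 to 0.64 for Stat6, both lowest without septic wildtype replicate 2, and septic TLR-deficient minus untreated from -0.032 to 0.60 for Stat4 and from -0.13 to 0.18 for Stat5a. The median of the Janus kinases in septic TLR-deficient minus septic wildtype ran from -0.056 to 0.64 and that of Stat3 targets in septic TLR-deficient minus untreated from -0.31 to 0.15. The cause of these turns was not tested. Each STAT gene has 1 probe set, so averaging probe sets leaves it unaltered.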
